A study of Mus musculus with 4 samples.

Results

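The nuclear genes of oxidative phosphorylation encode most subunits of the respiratory chain and of ATP synthase in the inner mitochondrial membrane. Their N6-methyladenosine (m6A) peaks were examined in hearts of knockout (Wtap-CKO) and control (Wtapflox/flox) mice at 4 days of age. Members were defined by gene symbol, with earlier results of these data known. The rule took names starting with Nduf, Uqcr, Atp5 or with Cox4 to Cox8. It also took Sdha, Sdhb, Sdhc, Sdhd, Cycs, Cyc1 and Atpif1, and left out names containing -ps. The rule found 77 of 21179 peaks in the knockout list and 62 of 20766 peaks in the control list, in 69 of 12182 genes with a peak.

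The study used MeRIP-seq: an antibody against m6A enriches RNA fragments (IP), which are sequenced along with RNA that was not enriched (input). RNA was pooled from 8 knockout and 7 control mice, and each genotype gave 1 IP and 1 input library. Control mice carried the floxed Wtap allele. The Cre line of the knockout, and the cells in which it acts, are not given in the sources used here. Without replicates no difference between the lists could be tested, and all comparisons are of these 2 lists. The libraries' depth is unknown, because the lists hold peaks and no read totals. Whole hearts were used, so fewer cells of a type and less RNA per cell cannot be told apart.

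Wtap, the targeted gene, had 4 knockout and 3 control peaks. A peak's fold is IP over input and gives no transcript level, so these peaks do not check the deletion. All 10 heart muscle markers had a peak in both lists. Of the markers of other cells, 4 fibroblast markers had a knockout peak and 3 a control peak (Dcn had no control peak), 4 and 4 endothelial, 4 and 3 smooth muscle and pericyte (Acta2 had no control peak), 1 and 1 of 4 immune, 1 and 0 of 3 epicardial, and 1 and 1 of 3 red cell markers. The immune markers Ptprc, Adgre1 and Cd68 had no peak in either list. The part of other cells in the results was not tested.

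Electrons from NADH enter the chain at complex I, those from succinate at complex II. They pass through complex III and cytochrome c to complex IV, which reduces oxygen. ATP synthase uses the proton gradient built by complexes I, III and IV. The heart relies on this pathway more than most tissues, and dedicated assembly factors put the complexes together. WTAP is a regulatory subunit of the nuclear complex that writes m6A on messenger RNA.

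More of these genes carried a peak in the knockout list than in the control list. Peaks were present in both lists for 45 genes, in the knockout list only for 21 (30.4%, exact Clopper-Pearson 95% interval 19.9 to 42.7) and in the control list only for 3 (4.35%, 0.906 to 12.2). Over all genes with a peak, 11.9% were listed in the knockout only and 10.5% in the control only. A RefSeq table held 99 protein-coding symbols that meet the rule, of which 31 (31.3%, 22.4 to 41.4) had a peak in neither list, against 52.1% of all 21900 protein-coding symbols of the table, expressed in the heart or not. Of the 31, 13 were in complex I, 1 in its assembly factors, 3 in complex III, 9 in complex IV and 5 in ATP synthase. They included Cox4i1, the common isoform of complex IV subunit 4, Uqcrfs1, the Rieske iron-sulfur protein of complex III, and Ndufv2, an iron-sulfur subunit of complex I. The member Ndufs6b is a pseudogene in that table, and by its name it is counted with the complex I subunits in all peak and pair counts. A gene without a peak had no call at the authors' q threshold of 0.05, which does not show that it was free of m6A.

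**Figure D1:**
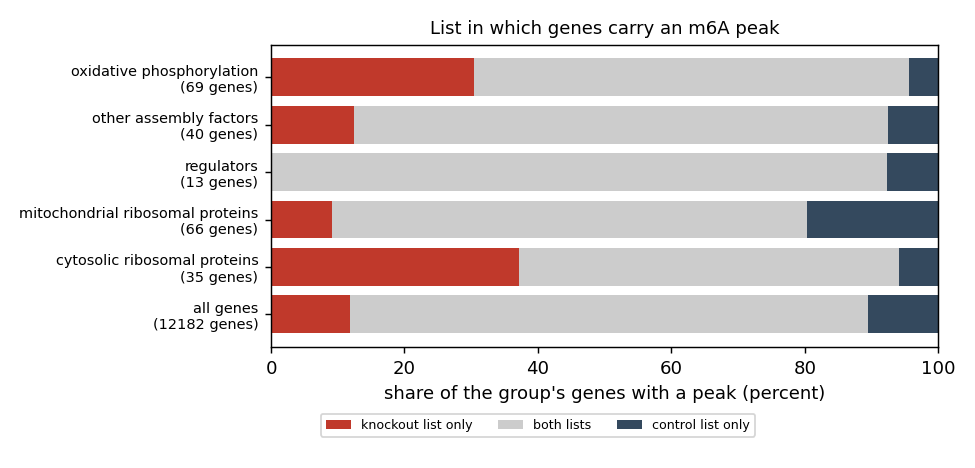
Share of each gene group's genes, among those with a peak in either list, that had a peak in the knockout list only, in both lists or in the control list only (percent, horizontal axis, 1 bar per group). The knockout-only part is 30.4% for oxidative phosphorylation genes and 11.9% for all genes.

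Peaks of the same gene and strand whose exonic blocks shared 1 base or more were paired, each with its best partner, which gave 48 pairs in 43 genes. The knockout fold was the larger one in 37 of 48 pairs (77.1%, 62.7 to 88.0), against 50.6% of 15120 pairs over all genes. It was at least 1.5 times the control fold in 20 pairs (41.7%, all genes 27.3%), and at most the control fold divided by 1.5 in 7 pairs (14.6%, all genes 27.5%). The median ratio of fold, knockout over control, was 1.4 (95% interval by order statistics 1.17 to 1.55), and over all pairs it was 1.01 (0.998 to 1.02). The p of the authors' caller was smaller in the knockout list for 42 of 48 pairs (87.5%, all genes 49.2%). Fold and p here are the values that the authors' caller gave to each peak, in lists made separately. Paired peaks could differ in width. The knockout peak was the wider one in 25 of 48 pairs (52.1%, all genes 42.1%), and the control peak in 10 (20.8%, all genes 45.0%). The part of width in the ratios was not tested.

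The direction was not the same for structural subunits as for assembly factors and the ATPase inhibitor; this difference was not tested. Among subunits, 35 of 42 pairs (83.3%, 68.6 to 93.0) had the larger fold in the knockout list, with a median ratio of 1.44. Among the other 6 pairs it was 2. The 7 subunit pairs with a larger control fold were those of Atp5a1, Atp5g1, Ndufs4, Ndufv3, Cox6a1, Cox6b2 and Cox7a2l, whose control folds lay between 6.15 and 27.3. Of the other 35 subunit pairs, 3 had a control fold of 6.15 or more. The control fold is part of the ratio that splits these pairs, so the split is not independent of it.

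**Figure D2:**
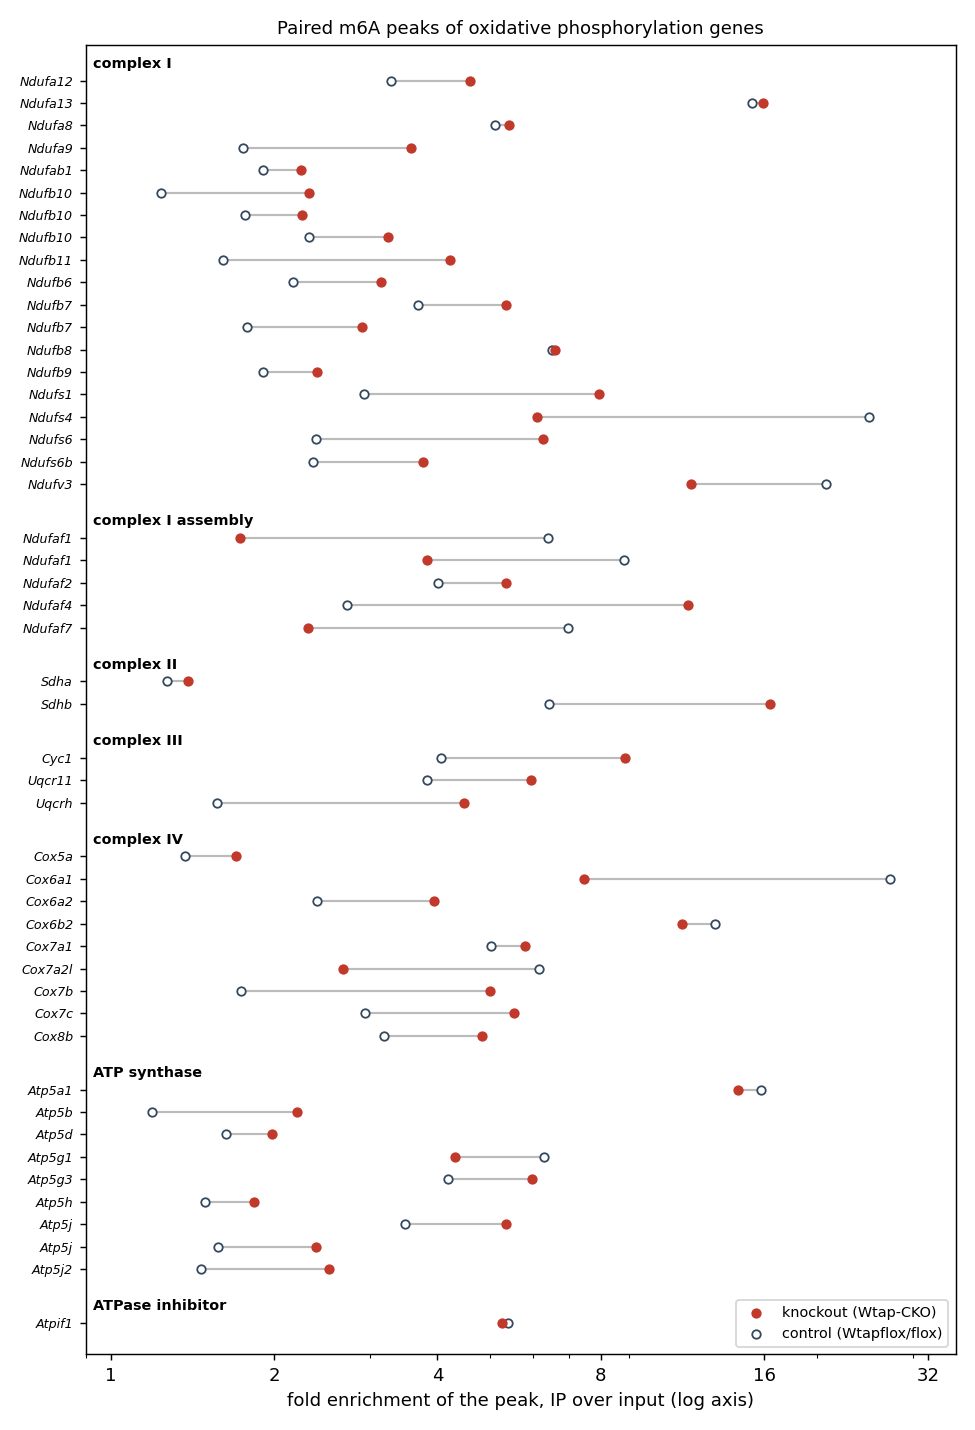
Fold enrichment of each of the 48 paired peaks (horizontal log axis, IP over input) in the knockout list (filled) and the control list (open), 1 row per pair, grouped by complex. The knockout point lies to the right in 37 rows; the rows of Cox6a1, Ndufs4 and Ndufaf1 show the widest gaps the other way.

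The larger knockout folds were most frequent among pairs of low fold. For each pair, the geometric mean of its knockout and control folds was taken as its mean fold, a split added after the data were seen. Below a mean fold of 3, all 19 member pairs had the larger fold in the knockout list, while among 1398 pairs of other genes 705 did (50.4%). At a mean fold of 5 or more, 7 of 15 member pairs had the larger knockout fold, and 51.6% of 10721 pairs of other genes. With folds of at least 4 required in both lists, 8 of 15 member pairs had the larger knockout fold, against 52.1% of all such pairs, and the median log2 ratio of these member pairs was 0.02 (-0.55 to 0.42), against 0.48 (0.23 to 0.64) over all 48.

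**Figure D3:**
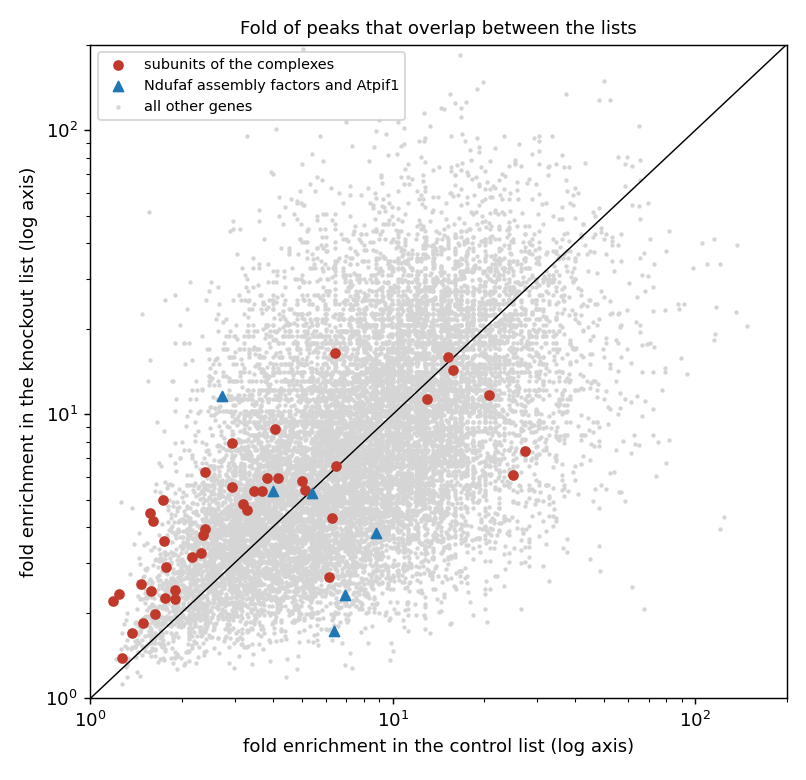
Fold enrichment of overlapping peaks in the knockout list (vertical, log axis) against the control list (horizontal, log axis), 1 point per pair, with the line of equal fold. Subunit genes at the low end lie above the line, and 3 of the 5 pairs of Ndufaf genes lie below it, while other genes spread to both sides.

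Knockout peaks without a control counterpart were frequent among members. They made up 29 of 77 knockout peaks (37.7%, 26.9 to 49.4), against 24.5% of all knockout peaks. This was not particular to members: the share was 46.5% for cytosolic and 34.3% for mitochondrial ribosomal protein genes. It was 34% for assembly factors outside the rule and 22.2% for regulators of these genes. Control peaks without a knockout counterpart made up 13 of 62 (21.0%, 11.7 to 33.2), against 23.9% of all control peaks. Among strong peaks, with a q no larger than 1e-10, 11 of 50 in the knockout list (22%, all genes 4.04%) and 1 of 35 in the control list (2.86%, all genes 8.72%) had no counterpart. That single control peak belonged to Ndufaf4, an assembly factor. The share of strong knockout peaks without a counterpart was 17.6% for cytosolic and 12.5% for mitochondrial ribosomal protein genes. It was 4.55% for assembly factors outside the rule and 0% for regulators.

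Peaks of members were fewer per gene and lower in fold than those of all genes, and so were those of ribosomal protein genes. Members had 1.17 knockout and 1.29 control peaks per gene with a peak, against 1.94 and 1.93 over all genes, 1.32 and 1.37 for mitochondrial and 1.3 and 1.14 for cytosolic ribosomal protein genes. The median fold was 3.24 in the knockout list and 3.4 in the control list, against 7.03 and 7.22 over all peaks, 2.71 and 3.6 for mitochondrial and 3.78 and 3.41 for cytosolic ribosomal protein genes. Folds under 2 made up 18.2% of knockout and 27.4% of control peaks of members, against 4.06% and 3.8% of all peaks, 12.9% and 11% for mitochondrial and 25.6% and 32% for cytosolic ribosomal protein genes. No test of these differences was made. Peaks spanning more than 1 exonic block made up 48.1% (36.5 to 59.7) of knockout and 33.9% (22.3 to 47.0) of control peaks, against 23.3% and 21.2% of all. These shares were 35.7% and 23.2% for mitochondrial and 32.6% and 16% for cytosolic ribosomal protein genes. For assembly factors outside the rule they were 34% and 40%. Of the 48 pairs, 13 had identical blocks in both lists (27.1%, all genes 8.78%).

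The members with the smallest p in the knockout list and with 1 promoter in a RefSeq table of build GRCm38.p6 were Atp5g3, Cox8b and Ndufb7 (Atp5j has 2 promoters there). Cox7a2l had the smallest control p among pairs with the larger control fold. Their promoters are shown because of these p-values, and other members had more extreme ratios of fold in both directions. Each window is 300 bases long, 250 before and 50 after the annotated start, written 5′ to 3′ on the gene's strand, with short motifs in capitals. The Atp5g3 window is chr2:73911277-73911576 on the minus strand, that of Cox8b chr7:140900397-140900696 on the minus strand, that of Ndufb7 chr8:83566508-83566807 on the plus strand, and that of Cox7a2l chr17:83514284-83514583 on the minus strand.
Atp5g3: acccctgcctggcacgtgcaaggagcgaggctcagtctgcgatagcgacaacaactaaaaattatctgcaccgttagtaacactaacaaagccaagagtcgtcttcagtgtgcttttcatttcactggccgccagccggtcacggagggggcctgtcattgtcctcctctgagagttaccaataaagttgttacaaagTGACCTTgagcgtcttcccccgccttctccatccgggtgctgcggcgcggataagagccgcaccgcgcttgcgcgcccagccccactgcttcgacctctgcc
Cox8b: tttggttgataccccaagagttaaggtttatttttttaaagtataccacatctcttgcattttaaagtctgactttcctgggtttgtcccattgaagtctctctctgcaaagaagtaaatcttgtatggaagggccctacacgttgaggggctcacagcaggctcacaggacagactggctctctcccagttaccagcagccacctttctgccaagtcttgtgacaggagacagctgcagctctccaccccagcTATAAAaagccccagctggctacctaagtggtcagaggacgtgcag
Ndufb7: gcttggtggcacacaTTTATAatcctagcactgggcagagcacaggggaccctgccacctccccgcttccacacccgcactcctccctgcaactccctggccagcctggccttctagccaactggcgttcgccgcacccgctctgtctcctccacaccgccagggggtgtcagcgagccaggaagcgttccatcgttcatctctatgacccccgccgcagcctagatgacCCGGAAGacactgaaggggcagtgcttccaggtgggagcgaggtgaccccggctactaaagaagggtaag
Cox7a2l: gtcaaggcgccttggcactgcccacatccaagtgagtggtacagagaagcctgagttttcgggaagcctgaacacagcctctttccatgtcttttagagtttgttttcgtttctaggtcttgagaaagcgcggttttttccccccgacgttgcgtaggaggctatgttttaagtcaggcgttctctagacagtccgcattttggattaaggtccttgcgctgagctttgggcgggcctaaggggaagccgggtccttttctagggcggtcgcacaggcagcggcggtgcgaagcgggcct

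Capitals mark an estrogen-related receptor motif (AAGGTCA) on the opposite strand in Atp5g3, a TATA motif (TATAAA) in Cox8b, and a TATA motif on the opposite strand and an ETS motif bound by GABP (CCGGAAG) in Ndufb7. The motifs searched on both strands, GCATGCGC (NRF1) and AAGATGG (YY1) with these 3, were not found in the Cox7a2l window. Of the 69 members, 56 matched a promoter by symbol. NRF1 and GABP regulate many respiratory chain genes in mammals. The NRF1 motif stood in the windows of 11 of 56 members (19.6%, 10.2 to 32.4) and 3.05% of 27025 genes, and the GABP motif in 14 (25%, 14.4 to 38.4) and 9.93%. The estrogen-related receptor motif stood in 6 (10.7%, 4.03 to 21.9, all genes 5.38%), an interval that holds the share of all genes. The YY1 motif stood in 9 (16.1%, 7.62 to 28.3, all genes 7.28%). The TATA motif stood in 2 (3.57%, 0.435 to 12.3, all genes 15.7%). The 27025 genes were all those with a promoter entry, with or without a peak. A match describes these letters and is no evidence of binding.

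Complex I, the NADH dehydrogenase, had 27 genes with a peak, 17 in both lists, 9 in the knockout list only and 1 in the control list only. Its pairs had the larger knockout fold in 17 of 19 (89.5%, 66.9 to 98.7). Ndufb7, an accessory subunit, had a peak on chromosome 8 at 84293360 to 84293629 with a fold of 5.36 in the knockout list (log10 p -324) and 3.68 in the control list (-140). Its other shared peak, from 84297611 (control list 84297581) to 84298255, had folds of 2.9 and 1.78, and a further peak, at 84295995 to 84296204, was in the control list only (fold 22.5, log10 q -5.12). The stronger calls of this gene thus had larger folds in the knockout list, while a weaker call was missing there.

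Ndufb10, an accessory subunit of the membrane arm, had 3 neighbouring peaks on chromosome 17 in both lists. The strongest, at 24941958 to 24943452, had a fold of 3.24 in the knockout list (log10 p -206) and 2.32 in the control list (-89.8). The next, at 24941331 to 24941598, had 2.25 in the knockout list and 1.77 in the control list, and the last, from 24941034 (control list 24941123) to 24941271, had 2.32 and 1.24. All 3 peaks were higher in the knockout list, the last by the widest margin. Ndufb6, also an accessory subunit, had identical blocks on chromosome 4 at 40279182 to 40279421 with a fold of 3.15 in the knockout list and 2.17 in the control list. The Ndufb11 peak (chrX:20483302-20483858 in the knockout list, chrX:20483331-20483536 in the control list) was 557 bases wide with a fold of 4.22 in the knockout list, and 206 bases wide with a fold of 1.61 in the control list.

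Ndufs1, the largest core subunit, which carries iron-sulfur clusters, had a fold of 7.94 in the knockout list (log10 p -47.6) and 2.93 in the control list (-16.6), on chromosome 1 at 63215603 to 63215902 and 63215663 to 63215902. Ndufs6, an accessory subunit that binds zinc, had 6.26 in the knockout list and 2.39 in the control list. Ndufs6b, a pseudogene in the RefSeq table that resembles Ndufs6, had 3.76 in the knockout list and 2.36 in the control list. The sources used here do not say how reads of such near copies were assigned, so the Ndufs6 and Ndufs6b values are uncertain. Ndufa8, an accessory subunit, had a peak in 2 blocks on chromosome 2, from 35934414 (control list 35934443) to 35939418, with folds of 5.41 in the knockout list (log10 p -107) and 5.11 in the control list (-65.1). Ndufb8 had 6.58 and 6.49. For these genes the folds were close, although the p-values were smaller in the knockout list. The accessory subunits Ndufa12, Ndufab1 and Ndufb9 had ratios of fold, knockout over control, between 1.17 and 1.4.

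The lower folds of complex I in the knockout list were those of Ndufs4 and Ndufv3. Ndufs4, an accessory subunit whose loss causes Leigh-like disease in mice, had a fold of 6.1 in the knockout list (chr13:114497836-114497985, log10 p -2.7) and 24.9 in the control list (chr13:114497628-114523966 in 2 blocks, -6.77), both weak calls. Ndufv3, a small accessory subunit, had a peak of over 1000 bases on chromosome 17, at 31746284 to 31747297 in the knockout list (fold 11.7, log10 p -43.9) and to 31747327 in the control list (fold 20.8, -93.0). A further call upstream in the gene (31739149 to 31740545, fold 2.1, log10 q -6.68) was in the knockout list only.

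The complex I genes listed in the knockout only included Ndufa5, Ndufa6, Ndufa10, Ndufa11, Ndufb1, Ndufc2, Ndufs8 and Ndufv1. Ndufb1, an accessory subunit, had the strongest of these, a peak in 3 blocks on chromosome 12 at 101934467 to 101941978 with a fold of 2.18 and a log10 q of -51.0, and a further peak (chr12:101942126-101942214, fold 4.13, log10 q -2.14). Ndufc2, an accessory subunit, followed with a fold of 6.1 (chr7:97049268-97049442, log10 q -22.3), and Ndufv1, the flavoprotein that oxidises NADH, with 1.93 (chr19:4061116-4061325, -16.5). Both had a single block. The core subunit Ndufs8 had a fold of 5.71 (chr19:3962510-3962715, log10 q -10.3), and Ndufa5 had 1.41 (chr6:24522669-24527281 in 2 blocks, -10.8). The weakest were Ndufa11 (chr17:57024796-57024914, fold 1.44, -3.83), Ndufa6 (chr15:82238316-82238493, fold 1.54, -3.74) and Ndufa10 (fold 2.39, -1.42). Both core and accessory subunits were thus among them.

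Ndufa2 was the 1 complex I subunit listed in the control only, with a fold of 1.35 and a log10 q of -6.16 (chr18:36875499-36875670). Ndufb2 had peaks in both lists without overlap. Its knockout peak on chromosome 6 at 39569508 to 39569718 had a fold of 2.32 (log10 q -41.6), with a further one at 39576994 to 39577143 (fold 11.3, -1.9), and its control peak at 39579897 to 39580077 had 8.02 (-2.63). Ndufa9 shared a peak on chromosome 6, from 126821828 (control list 126821947) to 126826069 (3.58 in the knockout list and 1.75 in the control list) and had a weak control-only peak (chr6:126798773-126798891, fold 5.35, log10 q -2.33). Ndufa13, known also as GRIM-19, shared a weak peak (chr8:70354553-70354910 with 15.9 in the knockout list, chr8:70354791-70354970 with 15.2 in the control list) and had a control-only peak (chr8:70354256-70354346, fold 2.3, log10 q -1.86).

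The complex I assembly factors of the Ndufaf family act before the complex is mature and leave it afterwards. Of 7 with a peak, 5 were in both lists, Ndufaf8 was in the knockout list only (chr11:119989754-119990055 in 2 blocks, fold 4.38, log10 q -7.42) and Ndufaf6 in the control list only (chr4:11076058-11076205, fold 4.68, -4.02). Ndufaf1 had a peak of 236 bases on chromosome 2 (119490816 to 119491051) with a fold of 1.73 in the knockout list (log10 p -6.17), and of 530 bases (119490522 to 119491051) with 6.4 in the control list (-111). Its other pair had 3.83 in the knockout list (119491140 to 119493308 in 2 blocks) and 8.82 in the control list (119493190 to 119493308). Ndufaf7, an arginine methyltransferase of the mitochondria, had 2.31 in the knockout list (chr17:79254403-79254613, log10 p -5.6) and 6.95 in the control list (chr17:79254284-79254613, -50.5). The knockout folds of Ndufaf1 and Ndufaf7 were at most 0.434 of the control folds.

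Ndufaf4 differed in the number of its calls between the lists. On chromosome 4 the knockout peak at 24898083 to 24898351 had a fold of 11.6 (log10 p -131), and the overlapping control peak at 24898113 to 24898321 had 2.72 (-18.2). The strongest control peak, at 24898649 to 24902023 in 2 blocks (fold 6.15, log10 q -153), and a further one at 24903095 to 24903363 (fold 2.39, log10 q -9.84) had no knockout counterpart. The gene's peaks thus lay at 1 place in the knockout list and at 3 in the control list. Ndufaf2 had folds of 5.35 in the knockout list (chr13:108228070-108295157) and 4.01 in the control list (chr13:108228070-108295068), in 2 blocks each. Ndufaf5 had peaks that did not overlap, with 28.1 in the knockout list (chr2:140012599-140012748, log10 q -6.45) and 14.4 in the control list (chr2:140013052-140013142, -2.86).

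Complex II, succinate dehydrogenase, links the citric acid cycle to the chain, and all 4 of its genes had a knockout peak. Sdhc and Sdhd, the membrane anchors, were listed in the knockout only, with folds of 2.89 (chr1:170971141-170978172 in 3 blocks, log10 q -19.8) and 1.67 (chr9:50511922-50515112 in 2 blocks, -15.4). Sdhb, the iron-sulfur subunit, had a fold of 16.4 in the knockout list (chr4:140688604-140688783, log10 p -11.8) and 6.42 in the control list (chr4:140688633-140688753, -8.22). It also had a control-only peak with a fold of 7.42 (chr4:140701209-140701508, log10 q -5.41). Sdha, the flavoprotein, had identical blocks (chr13:74475055-74475145) with folds of 1.39 in the knockout list and 1.27 in the control list, and a knockout-only peak with a fold of 2.57 (chr13:74493028-74497921 in 3 blocks, log10 q -9.64). The paired peaks of this complex were both higher in the knockout list.

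Complex III passes electrons to cytochrome c, and each of its 6 genes with a peak had one in the knockout list. Cyc1, the cytochrome c1 heme protein, had 1 knockout peak of 778 bases on chromosome 15 at 76227723 to 76228500 with a fold of 8.88 (log10 p -213). It covered both control peaks, at 76227723 to 76227992 (fold 3.31, log10 p -112) and 76228052 to 76228471 (fold 4.06, -20.3). Uqcrh, the hinge protein, had a fold of 4.48 in the knockout list (chr4:115927933-115932268 in 2 blocks, log10 p -67.2) and 1.57 in the control list (chr4:115932121-115932268, -6.73). Uqcr11, a small subunit, had 5.94 in the knockout list (chr10:80242519-80242664) and 3.82 in the control list (chr10:80242460-80242664). Uqcr10, Uqcrc1 and Uqcrc2 were in the knockout list only, with folds of 1.46 (chr11:4654035-4654313, log10 q -6.57), 3.05 (chr9:108765761-108766053, -10.5) and 1.61 (chr7:120234458-120234742, -4.87), in 2 blocks each. Uqcrc1 and Uqcrc2 encode the core proteins. All 3 pairs were higher in the knockout list.

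Cycs, which encodes cytochrome c, had no knockout peak and a weak control peak (chr6:50542843-50543488 in 2 blocks, fold 7.62, log10 q -2.67).

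Complex IV, cytochrome c oxidase, had 11 genes with a peak, 9 in both lists and 2 (Cox5b and Cox6c) in the knockout list only. Of its 9 pairs, 6 had the larger fold in the knockout list. Several subunits have one isoform for heart and skeletal muscle and another for most other tissues. The muscle isoform Cox8b had identical blocks on chromosome 7 at 140480150 to 140480359, with a fold of 4.84 in the knockout list (log10 p -650) and 3.19 in the control list (-249). The muscle isoform Cox6a2 had 3.95 in the knockout list (chr7:127805137-127805559 in 2 blocks, log10 p -137) and 2.4 in the control list (chr7:127805411-127805559, -25.8). The muscle isoform Cox7a1 had 5.81 in the knockout list (chr7:29883569-29884522 in 2 blocks, log10 p -19.1) and 5.01 in the control list (chr7:29883569-29883747, -8.2). The 3 muscle isoforms were higher in the knockout list.

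Among the isoforms of other tissues, Cox8a and Cox7a2 had a peak in neither list. Cox6a1 had identical blocks on chromosome 5 at 115486836 to 115487040, with a fold of 7.45 in the knockout list and 27.3 in the control list. Its log10 p was -31.0 in the knockout list and -14.6 in the control list, so the smaller p stood with the smaller fold. Cox4i2, Ndufa4 and Ndufa4l2, the last 2 counted with complex IV here, had no peak in either list. Cox6b2, an isoform known from testis, had 11.3 in the knockout list (chr7:4755210-4755913) and 13.0 in the control list (chr7:4755180-4755884), and a control-only peak (chr7:4755943-4756033, fold 8.42, log10 q -2.83).

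Cox7a2l, which is known for joining complexes III and IV into supercomplexes, had the smallest control p of complex IV names. Its peak on chromosome 17 spanned 83809554 to 83809849 in the knockout list (fold 2.68, log10 p -109) and 83809495 to 83809938 in the control list (fold 6.15, log10 p -578). Cox7b, a small nuclear subunit, had 5.0 in the knockout list (chrX:105059306-105063038, log10 p -58.9) and 1.74 in the control list (chrX:105059336-105063008, -14.4), in 3 blocks each. The direction was thus opposite in Cox7a2l and Cox7b. Cox5a had 1.7 in the knockout list (chr9:57428557-57436304) and 1.37 in the control list (chr9:57428587-57436304), and Cox7c had 5.54 and 2.94. The knockout-only Cox5b had a fold of 4.79 (chr1:36730620-36730799, log10 q -5.55), and Cox6c had 3.15 (-2.83).

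ATP synthase had 12 genes with a peak, 8 in both lists and 4 in the knockout list only, and 7 of its 9 pairs had the larger knockout fold. Its p was smaller in the knockout list for all 9. Atp5g3, a gene of the c-ring, had the strongest call of all members, in 3 identical blocks on chromosome 2 at 73740785 to 73741670, with a fold of 5.98 in the knockout list (log10 p -1270) and 4.18 in the control list (-637). Atp5j, coupling factor 6, had 5.35 in the knockout list (log10 p -407) and 3.48 in the control list (-124) on chromosome 16, from 84628207 (control list 84628267) to 84630420. Another pair of Atp5j, at 84631676 to 84631914 (control list 84631706 to 84631884), had 2.39 and 1.58, and a peak at 84632334 to 84632513 was knockout-only (fold 2.4, log10 q -3.04). All its pairs were higher in the knockout list.

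Atp5b, the catalytic beta subunit, had a fold of 2.2 in the knockout list (chr10:127919172-127919848, log10 p -85.0) and 1.19 in the control list (chr10:127919172-127919938, -14.4). The delta subunit Atp5d had 1.98 in the knockout list (chr10:79981122-79981415, log10 p -70.1) and 1.63 in the control list (chr10:79981122-79981385, -37.2). Atp5h, of the peripheral stalk, had 1.84 in the knockout list (log10 p -57.1) and 1.49 in the control list (-29.4) in identical blocks (chr11:115306515-115306859). These folds were low in both lists, and higher in the knockout list. Atp5j2, a membrane subunit, had 2.52 in the knockout list and 1.47 in the control list. Atp5a1, the alpha subunit, had 14.3 in the knockout list and 15.8 in the control list in identical blocks. Atp5g1, another c-ring gene, had 4.3 in the knockout list and 6.28 in the control list. The knockout-only genes were Atp5mpl (chr12:111929667-111933085, fold 1.62, log10 q -10.4), Atp5k (chr5:108581933-108582197, 2.85, -5.1), Atp5pb (chr3:105866808-105867355, 2.53, -3.48) and Atp5e (chr2:174305749-174305898, 1.43, -3.06). Atp5mpl alone of these reached a log10 q of -10.

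Atpif1, which encodes the inhibitor of ATP hydrolysis by the synthase, had 2 peaks in each list. Its shared peak on chromosome 4 at 132260794 to 132260970 had a fold of 5.27 in the knockout list (log10 p -40.9) and 5.4 in the control list (-18.2). The knockout list had a further peak at 132257954 to 132259853 (fold 2.12, log10 q -67.7), the control list one at 132260059 to 132260206 (fold 2.11, -2.89). Peaks of Gm12999 lay on the other strand at this place, and the lists do not tell such genes apart. In the knockout list peaks of Atp5j and Atp5pb also overlapped a peak on the other strand, of Gabpa and Wdr77. Of the 47 pairs without such an overlap, 37 had the larger knockout fold.

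Names containing -ps, left out by the rule, had 7 knockout and 4 control peaks. All 4 pairs among them (Atp5k-ps2, Cox5b-ps, Uqcrh-ps1 and Ndufs5-ps) had the larger fold in the knockout list. Atp5k-ps2 had 4.08 in the knockout list (log10 p -526) and 2.14 in the control list (-169), stronger calls than the parent gene Atp5k. Reads shared between parent genes and copies may have been split, and their part in the results was not tested.

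Genes that assemble or regulate the complexes were set beside the members. Of 53 other assembly factors, 32 had peaks in both lists, 5 in the knockout list only, 3 in the control list only and 9 in neither, while 4 symbols (Coa1, Uqcc4, Uqcc5 and Uqcc6) were not matched in the RefSeq table and were not counted. Of their 33 pairs, 13 (39.4%, 22.9 to 57.9) had the larger knockout fold. A control fold at least 3 times the knockout fold was found in 12 (36.4%), against 6.78% of all pairs and 8.33% of member pairs. That share was 4.76% for structural subunits and 40% (2 of 5 pairs) for Ndufaf genes. It was 15.8% for regulators, 13.3% for mitochondrial and 0% for cytosolic ribosomal protein genes. Cox15, which makes heme A, had a paired peak with 2.69 in the knockout list and 14.9 in the control list. Coa3, a factor for the first complex IV subunit, had 1.75 and 6.02, and the paired peak of Oxa1l, the inner membrane insertase, had a ratio of 0.29, knockout over control. The copper chaperone Cox17 went the other way, with 4.84 in the knockout list and 3.57 in the control list.

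Of 14 regulators, 12 were found in both lists, 0 in the knockout list alone, 1 (Esrrg) in the control list alone and 1 in neither. In 4 of their 19 pairs (21.1%, 6.05 to 45.6) the knockout fold was larger, and the median ratio over the 19 was 0.659 (0.431 to 0.962). Those 4 pairs were of Pprc1 (2 of its 5 pairs, ratios 1.52 and 2.07) and Yy1 (2 of 3, 1.55 and 1.19). Tfam, which packages and transcribes mitochondrial DNA, had a fold of 6.61 in the knockout list (log10 q -55.3) and 13.7 in the control list (-239). The paired peak of Nrf1 had a fold of 5.34 in the knockout list and 12.2 in the control list, and the knockout list held a further Nrf1 peak with 10.3. Ppargc1a, the coactivator PGC-1alpha, had a highest fold of 1.92 in the knockout list (log10 q -1.58) and 8.79 in the control list (-44.1), in peaks that did not overlap.

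Ribosomal protein genes gave 2 further comparisons with groups of many small proteins. Cytosolic ribosomal protein genes were listed in the knockout only for 13 of 35 (37.1%, 21.5 to 55.1) and in the control only for 2, shares close to those of the members. Of their 22 pairs, 14 had the larger knockout fold (63.6%, 40.7 to 82.8). Mitochondrial ribosomal protein genes were listed in the knockout only for 6 of 66 (9.09%) and in the control only for 13 (19.7%, 10.9 to 31.3), and 17 of 45 pairs (37.8%, 23.8 to 53.5) had the larger knockout fold. In these shares the members were thus nearer to cytosolic than to mitochondrial ribosomal protein genes, a difference that was not tested. For knockout peaks without a counterpart, the members' 37.7% was nearer to the mitochondrial 34.3% than to the cytosolic 46.5%.

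**Figure D4:**
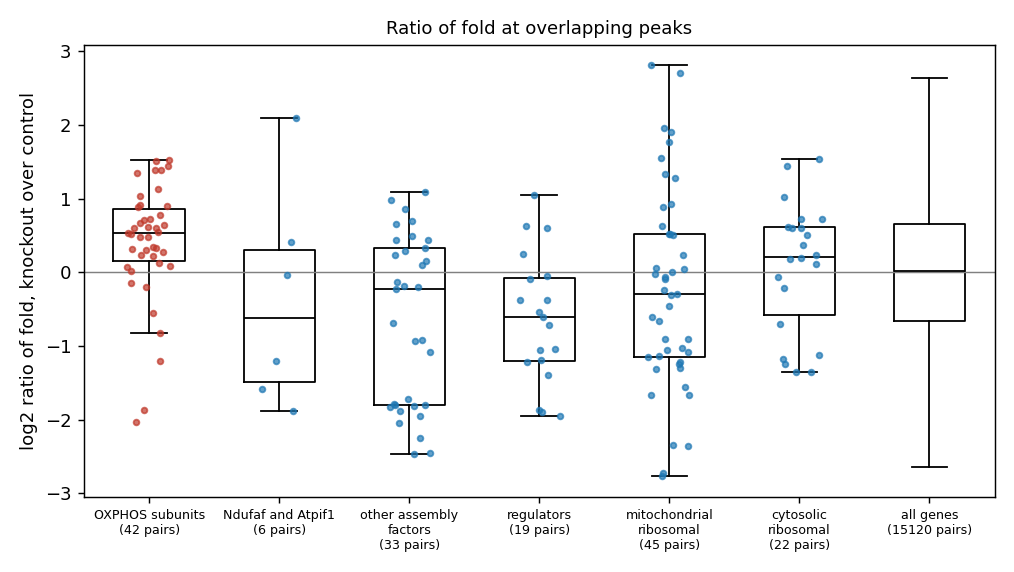
Log2 ratio of fold, knockout over control, at paired peaks (vertical axis), 1 point per pair, by gene group. Boxes show quartiles and median, whiskers reach 1.5 times the interquartile range, and points are left out for all genes. The median is 0.53 for subunits, -0.23 for other assembly factors, -0.6 for regulators and 0.02 for all genes.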

How the data were processed

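The authors pooled heart RNA per genotype (300 µg), fragmented it to about 100 nt, incubated it with the antibody for 2 h and sequenced 150-base pairs, per the labels' protocols. Per the labels, exomePeak 2.16.0 called the peaks of each genotype with q up to 0.05 as the limit, and the authors deposited both lists. Per the submitters' processing notes, the tools included BWA 0.7.12, fastp 0.19.11 and HOMER 4.9.1, and the build was GRCm39, which all peak positions here use. The deposited fold, a ratio, sets IP against input on a linear scale. The deposited p-value column matched 10 to the power of the log10 p within 0.02 log10 units for 20963 of 21179 knockout and 20538 of 20766 control peaks, with 198 and 203 listed as 0. The deposited log10 p and q were treated as a score because they reach minus infinity.

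Peaks were grouped by symbol, overlapped by exonic bases and strand, and paired within a gene by mutual best overlap (Python 3.11.15, numpy 2.4.6, pandas 2.3.3, scipy 1.17.1, matplotlib 3.10.9), and the code was tested on simulated data. Exact (Clopper-Pearson) and order-statistic 95% intervals treat peaks as independent and include counting error alone. No p-value was computed between genotypes. Values were given for the 5 strongest members per complex, single-list members at log10 q under -3, members with several peaks, the extreme ratios and the muscle isoforms; others were named after their values were seen. Members and lists were chosen with earlier results of these data known. Protein kinases (Rps6k) and binding proteins were taken out of the ribosomal list. The values of 1 member are not reported here. Peak sequences and transcript regions were not analysed here, since they need the genome of GRCm39. Alternatives were thresholds on q and fold, other overlap rules, merged peaks, equal list lengths, structural subunits alone and 1 peak per gene.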

Additional observations from a re-analysis of the deposited data

How the results depend on the processing

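The median log2 ratio of fold at paired peaks (0.48) was 0.02 over pairs with folds of at least 4 in both lists, an alternative added after the data were seen, and between 0.46 and 0.53 under the others tried for it. With folds of at least 2, for this ratio also an unplanned alternative, the interval was -0.0352 to 0.62, so its lower end was negative. There, 21 of 31 member pairs had the larger knockout fold, against 50.7% of all such pairs. The number of genes in the knockout list only (21) lay between 15 and 22, and the control-only number between 2 and 6. With folds of at least 2, the knockout share with a counterpart was 49.2%. With folds of at least 4, 34 knockout and 28 control peaks were left, 19 genes had peaks in both lists and 6 in the control list only, and the shares with a counterpart were 44.1% and 53.6%. At q at or under 1e-10, a threshold chosen after the data were seen, 50 knockout and 35 control peaks and 28 genes in both lists were left, and the control share with a counterpart was 88.6%. Fewer peaks qualify under these thresholds by construction. The other 68 of 80 values moved by less than their interval or by less than 1.5 times. No paired analysis was possible because each group held 1 library. Unknown depth limits every count: a weak peak can be listed in 1 genotype and missed in the other.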
